A study of Homo sapiens with 4 samples.

Results

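RPMI 8226 is a cell line established from a human multiple myeloma, and the RNA of its immunoglobulin heavy and light chain genes was measured by sequencing. The cells had been transfected 72 h earlier with antisense oligonucleotides made of locked nucleic acid (LNA), which lower the RNA they pair with. A control LNA group had 2 libraries, for which the labels give no separate dose, and a LINC01432 LNA group had 2 libraries at 50 nM. The sample titles name a single oligonucleotide per group, ASO1 for control LNA and ASO3 for LINC01432 LNA. No other oligonucleotide against LINC01432 is in the series. LINC01432 is a long intergenic noncoding RNA. All 4 libraries come from this single, otherwise unmodified line, and no label states that libraries of the same group are separate cultures. The p-values therefore cover the spread of these 4 libraries, which may be technical. The members were the rows whose Ensembl ID maps to a symbol of an immunoglobulin heavy, kappa or lambda chain segment, IGHMBP2 left out. This rule found 411 of 78932 gene rows: 212 genes and 199 pseudogenes, which were kept apart. Of the genes, 112 were heavy chain (60 V, 37 D, 6 J and 9 C), 52 kappa (46 V, 5 J and 1 C) and 48 lambda (37 V, 7 J and 4 C).

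An antibody is built from heavy chains and light chains, and a light chain is either kappa or lambda. During B cell development V, (D) and J segments are joined into a variable exon, which is spliced to a constant (C) segment, and a heavy chain locus can later switch from one C segment to another. A myeloma is a clone of plasma cells, the cells that secrete antibody. Its light chain counts therefore commonly fall mostly on the V, J and C segments of a single rearranged light chain.

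The libraries held 20873393 to 29161298 counts in genes. A count of 3, used here as the lower limit of detection, was worth 0.103 to 0.144 CPM by library totals alone. All other CPM are counts scaled to a common library size, by TMM. LINC01432 had 598 and 440 counts in control LNA libraries 1 and 2, and 193 and 250 in LINC01432 LNA libraries 1 and 2, a log2 fold change of -1.02 ± 0.11 (SE; edgeR, adjusted p = 0.000228). The plasma cell markers of the labelled cell type were present, apart from CD27, which had 4 counts or fewer in every library. Summed, the plasma cell list was at 2812 to 3443 CPM, led by IRF4. B cell markers, led by CR2, summed to 30.4 to 40.1 CPM, with CD22 at 0. Markers of T and NK cells, led by CD8A, summed to 1.78 to 2.93 CPM. Myeloid markers, led by CD14, summed to 4.83 and 5.08 CPM in the controls and 5.95 and 7.91 CPM with LINC01432 LNA, with LYZ and S100A8 at 0. Fibroblast and endothelial markers, led by COL1A1, summed to 4.21 and 4.51 against 6.05 and 7.27 CPM. Epithelial markers, led by EPCAM, summed to 114 to 118 against 99.0 to 99.6 CPM, with KRT19 at 0. Of 11 tested plasma cell markers 1 rose and 3 fell (edgeR, adjusted p under 0.05), where 7.5% of all tested genes rose and 4.37% fell, and of the other lists CR2 fell and COL1A1 rose. The part of these lists in the results was not tested. LINC01432 LNA library 2 stood apart from the other 3 libraries in the lambda segments, so lambda results are given with and without it.

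The most counted lambda V segments belong to family 2 and are close copies of each other, and so are the lambda C segments. Their reference sequences are shown because they set how well reads can be assigned. All are from GRCh38 and GENCODE 29, 5′ to 3′ on the strand of the gene. The first 294 bases of the V coding exon are given for IGLV2-14 (chr22:22758904-22759197, plus strand), IGLV2-23 (chr22:22698114-22698407, plus strand) and IGLV2-8 (chr22:22822982-22823275, plus strand), with capitals at each base that differs from IGLV2-14.
IGLV2-14: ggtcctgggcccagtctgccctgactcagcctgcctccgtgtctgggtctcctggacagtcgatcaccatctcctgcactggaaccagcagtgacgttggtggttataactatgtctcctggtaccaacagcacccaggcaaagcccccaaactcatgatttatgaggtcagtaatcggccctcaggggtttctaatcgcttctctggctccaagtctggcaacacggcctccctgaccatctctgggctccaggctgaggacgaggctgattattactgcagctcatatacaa
IGLV2-23: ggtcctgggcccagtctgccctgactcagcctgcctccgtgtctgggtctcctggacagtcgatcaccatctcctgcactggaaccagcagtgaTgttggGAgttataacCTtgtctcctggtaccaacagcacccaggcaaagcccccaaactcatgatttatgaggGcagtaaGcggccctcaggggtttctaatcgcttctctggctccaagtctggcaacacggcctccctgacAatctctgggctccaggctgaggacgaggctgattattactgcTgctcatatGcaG
IGLV2-8: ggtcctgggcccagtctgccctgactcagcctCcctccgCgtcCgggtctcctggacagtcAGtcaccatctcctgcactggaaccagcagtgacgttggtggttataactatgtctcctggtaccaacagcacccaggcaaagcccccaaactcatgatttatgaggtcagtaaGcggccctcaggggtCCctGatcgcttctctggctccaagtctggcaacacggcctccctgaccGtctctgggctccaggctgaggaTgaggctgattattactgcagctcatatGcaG
IGLV2-23 differed from IGLV2-14 at 11 of these bases and IGLV2-8 at 13, yet their mean counts over the 4 libraries were 34582 for IGLV2-14, 6849 for IGLV2-23 and 6.50 for IGLV2-8.

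The first 300 coding bases of the lambda C segments are given for IGLC2 (chr22:22900976-22901275, plus strand), IGLC3 (chr22:22906342-22906641, plus strand) and IGLC7 (chr22:22922594-22922893, plus strand), with capitals where a base differs from IGLC2.
IGLC2: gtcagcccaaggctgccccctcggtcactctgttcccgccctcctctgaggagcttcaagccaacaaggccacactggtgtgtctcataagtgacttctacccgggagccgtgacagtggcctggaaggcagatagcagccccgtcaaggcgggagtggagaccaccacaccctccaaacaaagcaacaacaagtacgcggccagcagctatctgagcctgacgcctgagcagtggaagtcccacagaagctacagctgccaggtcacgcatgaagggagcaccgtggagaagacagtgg
IGLC3: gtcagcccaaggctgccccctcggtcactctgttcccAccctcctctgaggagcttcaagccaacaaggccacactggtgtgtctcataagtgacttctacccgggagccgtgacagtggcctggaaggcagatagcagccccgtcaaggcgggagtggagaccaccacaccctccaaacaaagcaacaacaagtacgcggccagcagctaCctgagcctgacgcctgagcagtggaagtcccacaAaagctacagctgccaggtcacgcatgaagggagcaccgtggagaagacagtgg
IGLC7: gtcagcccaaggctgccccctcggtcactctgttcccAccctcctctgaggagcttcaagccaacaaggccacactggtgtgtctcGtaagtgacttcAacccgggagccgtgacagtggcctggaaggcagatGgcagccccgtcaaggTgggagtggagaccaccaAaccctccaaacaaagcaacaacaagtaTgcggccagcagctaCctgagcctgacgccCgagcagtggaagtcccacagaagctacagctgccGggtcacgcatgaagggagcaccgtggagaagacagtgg
IGLC3 differed from IGLC2 at 3 of these bases, IGLC7 at 10 and IGLC1, which had no counts, at 15. The end of the lambda J segments is given for IGLJ3 (chr22:22904988-22905025, plus strand) and IGLJ2 (chr22:22899618-22899655, plus strand), with capitals where IGLJ2 differs from IGLJ3, and the whole of the kappa segment IGKJ1 (chr2:88861886-88861923, minus strand) follows without capitals.
IGLJ3: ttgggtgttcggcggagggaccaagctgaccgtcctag
IGLJ2: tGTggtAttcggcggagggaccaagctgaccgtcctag
IGKJ1: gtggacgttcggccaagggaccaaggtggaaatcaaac
IGLJ2 and IGLJ3 differed at 3 of 38 bases. The reads were 150 bases long per the labels. Of all stretches of 150 bases in the IGLC2 transcript, 7.67% occurred unchanged in another immunoglobulin member, the same share as for IGLC3. For stretches of 75 bases these shares were 47.7% and 45.6%. For IGLV2-14 they were 0% at 150 bases and 24.7% at 75 bases, and for IGKC 0% at both lengths. How reads that fit several genes were counted is not given in the sources used here, so the split between IGLC2 and IGLC3, and between the family 2 V segments, is uncertain.

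Few segments were read at all. Of the 411 members, 333 had no count in any library, which allows at most 0.103 to 0.144 CPM in each, and 78 had at least 1 count (56 genes and 22 pseudogenes). The filter on low counts kept 21 members for the test, 18 genes and 3 pseudogenes. These were 7 lambda, 5 kappa and 6 heavy chain genes, the lambda V pseudogenes IGLV2-28 and IGLV2-34, and the heavy chain pseudogene IGHGP. Just inside the filter was IGKV1D-43 with 9 and 14 counts in the controls and 10 and 11 with LINC01432 LNA. Just outside were IGHA1 with 10 and 6 against 18 and 10 counts, and the pseudogene IGLC6 with 12 and 8 against 7 and 9. Of the members, 69 lie outside the antibody loci or are named as such copies (orphons), and 13 of these had a count.

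**Figure D1:**
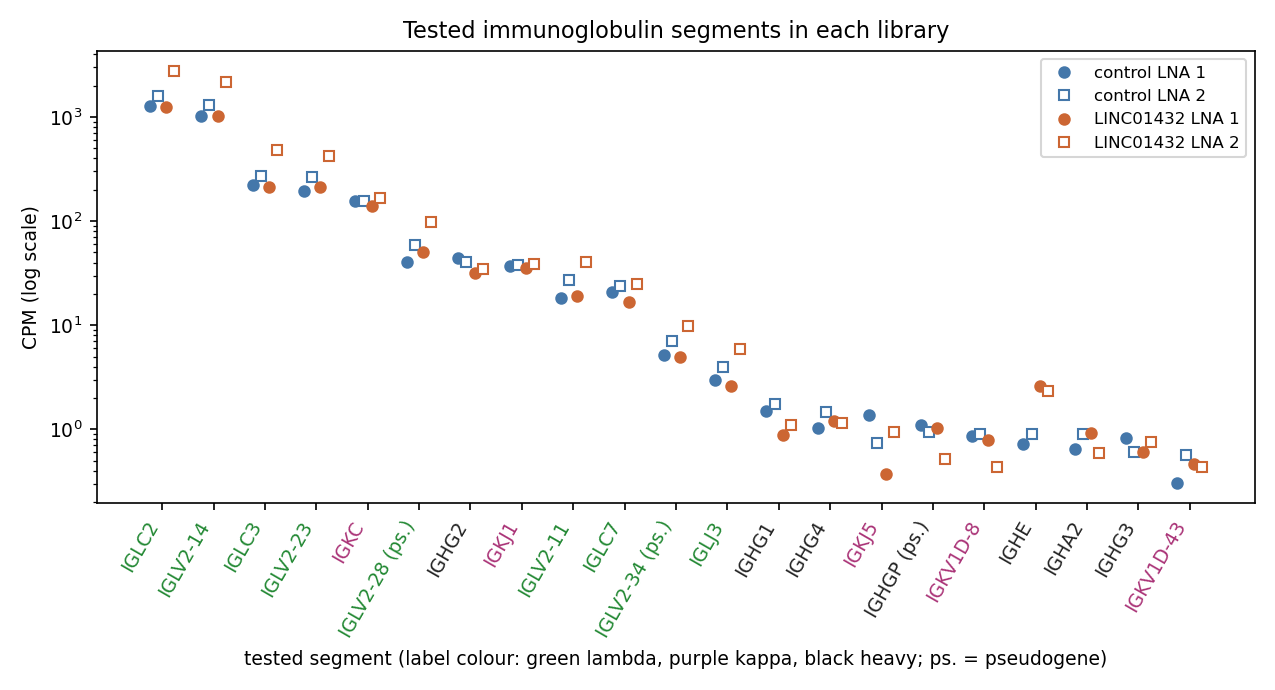
CPM of the 21 tested immunoglobulin segments in each library (y axis, log scale), ordered by their mean in the controls; filled and open symbols are libraries 1 and 2 of each group. IGLC2 and IGLV2-14 are the highest in every library, at 1015 CPM or more, and LINC01432 LNA library 2 is the highest for each lambda segment.

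Lambda constant segments were the most abundant members. IGLC2 (ENSG00000211677, chromosome 22 from 22900976 to 22901437) had 36880 and 38806 counts in control LNA libraries 1 and 2, and 27050 and 69400 in LINC01432 LNA libraries 1 and 2. Scaled to library size these were 1264 and 1578 CPM against 1258 and 2743 CPM. LINC01432 LNA library 1 was the lowest of the 4 and library 2 the highest, so the groups overlapped. IGLC3 followed with 6430 and 6635 counts against 4531 and 12167, and showed the same order of libraries. IGLC7 had 609 and 586 counts against 360 and 627. IGLC1 was at 0 in all libraries, as was IGLL5, a lambda-like gene of which 43.6% of the exonic bases overlap IGLC1 and IGLJ1.

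IGLC2 held 84.0% to 84.7% of the lambda C counts in a library, IGLC3 14.2% to 14.8% and IGLC7 0.763% to 1.39%. The widest 95% Wilson interval of these shares spanned 0.790 percentage points, and such intervals cover counting error only. For each 100 counts of IGLC2, IGLC3 had 16.8 to 17.5 in the 4 libraries. IGLC7 had 1.65 and 1.51 in the controls and 1.33 and 0.903 with LINC01432 LNA, so it did not keep step with IGLC2 in the library where IGLC2 was highest.

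The variable segment that led was IGLV2-14 (ENSG00000211666, chromosome 22 from 22758700 to 22759218), with 29621 and 32213 counts in the controls and 22174 and 54318 with LINC01432 LNA. In CPM these were 1015 and 1310 against 1031 and 2147, and again only LINC01432 LNA library 2 stood high. IGLV2-23 had 5658 and 6456 counts against 4563 and 10718, and IGLV2-11 had 528 and 668 against 409 and 1033. IGLV2-14 held 81.6% to 82.7% of the lambda V counts, IGLV2-23 15.8% to 16.8% and IGLV2-11 1.47% to 1.70%. All 6 family 2 genes had a count, against 13 of the 31 lambda V genes of other families, none of which exceeded 10 counts. Per kilobase of exon, IGLC2 averaged 3703 CPM and IGLV2-14 averaged 3422 CPM over the 4 libraries, while IGLC3 averaged 639 and IGLV2-23 averaged 544. Within each library IGLC2 was above IGLV2-14 per kilobase, and IGLC3 was above IGLV2-23, although the ranges over the libraries overlapped.

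Lambda V pseudogenes were counted as well. IGLV2-28 had 1188 and 1454 counts in the controls and 1089 and 2495 with LINC01432 LNA, and IGLV2-34 had 150 and 172 against 106 and 249. Over the stretch of IGLV2-14 printed above, IGLV2-28 was 81.3% identical and IGLV2-34 was 85.7% identical, below IGLV2-8 (95.6%) and IGLV2-18 (93.9%), which had 7.25 mean counts or fewer. Reference bases outside the alignment count as not identical here, and the IGLV2-34 transcript, at 283 bases, is shorter than that stretch. By this measure likeness and counts did not follow the same order. For each 100 counts of IGLV2-14, IGLV2-23 had 19.1 to 20.6, IGLV2-28 4.01 to 4.91, IGLV2-11 1.78 to 2.07 and IGLV2-34 0.458 to 0.534. The ratio of all lambda V to all lambda C counts was 0.804 to 0.855. These ratios stayed within a narrow range in libraries where the levels themselves differed.

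**Figure D2:**
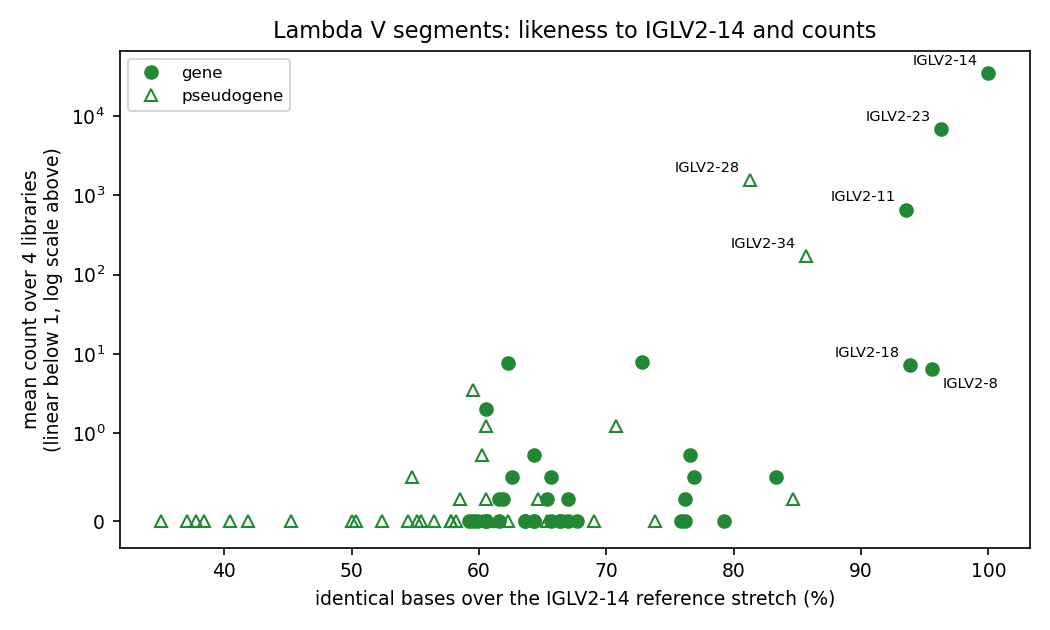
Mean count over the 4 libraries (y axis, linear below 1 and log above) against the share of identical bases over the 294 reference bases of IGLV2-14 (x axis) for lambda V genes (filled circles) and pseudogenes (open triangles). IGLV2-28, at 81.3% identity, has more counts than IGLV2-11, IGLV2-18 and IGLV2-8, which are closer to IGLV2-14.

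Among lambda J segments only IGLJ3 reached the test. It had 86 and 97 counts in the controls and 56 and 149 with LINC01432 LNA, or 96.6% to 97.7% of the lambda J counts. IGLJ2 had 2 and 3 counts against 2 and 5, and the other 5 lambda J segments had none. The GENCODE model of IGLJ3 spans 176 bases, longer than the J segment printed above, so its counts need not come from joined J sequence.

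Kappa transcripts were present at a lower level and nearly without V segments. IGKC, the single kappa constant segment (ENSG00000211592, chromosome 2 from 88857161 to 88857683), had 4572 and 3851 counts in the controls and 2969 and 4213 with LINC01432 LNA. These were 157 CPM in both controls against 138 and 167 CPM, so the LINC01432 LNA libraries lay on either side of the controls. Per kilobase IGKC averaged 295 CPM, below IGLC2 in every library. IGKJ1 had 1074 and 930 counts against 755 and 987, which was 95.1% to 97.5% of the kappa J counts and 23.4 to 25.4 for each 100 counts of IGKC. IGKJ5 had 40 and 18 counts against 8 and 24. The 46 kappa V genes together had only 46 and 47 counts in the controls and 34 and 33 with LINC01432 LNA, of which IGKV1D-8 had 25 and 22 against 17 and 11. IGKJ1 spans 38 bases, shorter than a read, so a level per kilobase is not given for it.

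Heavy chain transcripts were constant segments with almost no V, D or J. The 6 J genes were at 0 in all libraries, the 60 V genes together had 1 to 4 counts in a library, and the 37 D genes had 3 to 11. All of the D counts fell on 5 orphons, so no D gene of the heavy chain locus had a count. IGHG2, the constant segment of IgG2 (ENSG00000211893, chromosome 14 from 105639559 to 105644790), had 1277 and 987 counts in the controls and 688 and 877 with LINC01432 LNA. It held 81.9% to 89.6% of the heavy C counts. Of the other gamma segments, IGHG1 had 44 and 43 counts against 19 and 28, IGHG4 had 30 and 36 against 26 and 29, and IGHG3 had 24 and 15 against 13 and 19. IGHG1 is 96.0% identical to IGHG2 over 1185 coding bases, IGHG3 is 96.2% identical, and 8.75% of the stretches of 150 bases of IGHG2 occur in another member, so low gamma counts beside IGHG2 are uncertain. The gamma pseudogene IGHGP had 32 and 23 counts against 22 and 13. The alpha segment IGHA2 had 19 and 22 against 20 and 15. IGHM, the mu segment of IgM, was at 0 in all libraries, which allows at most 0.144 CPM, and IGHD, the delta segment, had at most 1 count. Per kilobase IGHG2 averaged 13.8 CPM, below IGKC and IGLC2 in every library; its gene model of 2737 exonic bases includes the exons of the membrane form.

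**Figure D3:**
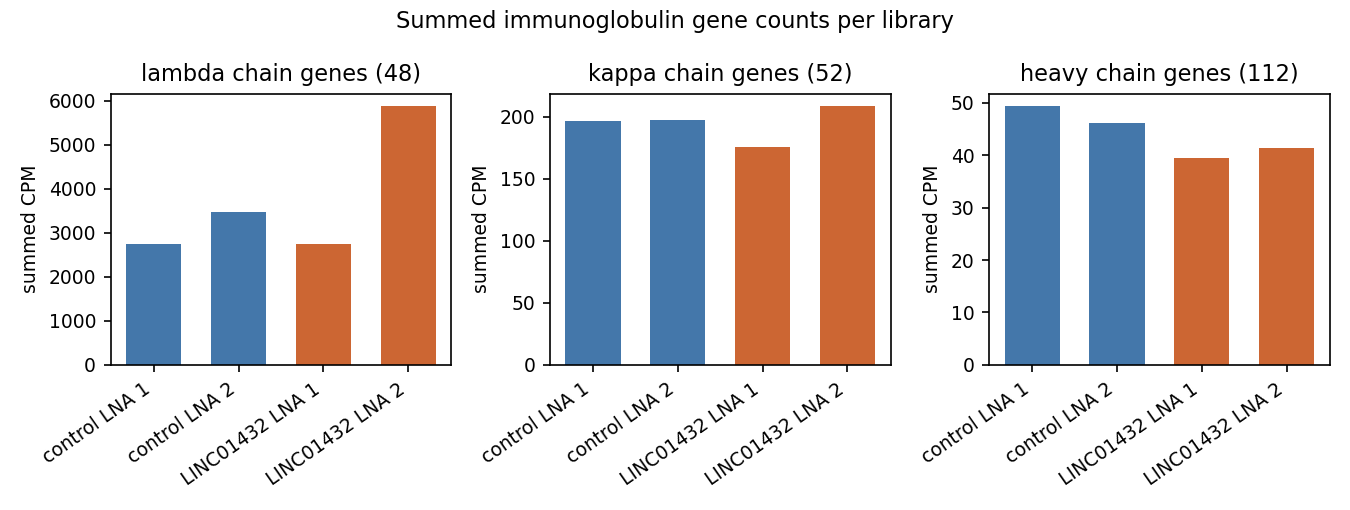
Summed CPM of the lambda, kappa and heavy chain genes in each library (bars, from 0; each panel has its own scale). The lambda sum is 5868 CPM in LINC01432 LNA library 2 and 2736 to 3477 CPM in the other 3 libraries, while the heavy chain sum is lower in both LINC01432 LNA libraries.

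Summed by chain, the lambda genes held 91.7% to 95.9% of all chain counts in a library, the kappa genes 3.41% to 6.60% and the heavy chain genes 0.677% to 1.65%. The 212 genes together took 0.298% and 0.374% of all gene counts in the controls, and 0.306% and 0.591% with LINC01432 LNA. The lambda sum was 3106 ± 524 CPM in the controls and 4310 ± 2203 CPM with LINC01432 LNA (SD, n = 2; exact permutation test over libraries, two-sided p = 0.667). Without LINC01432 LNA library 2 its log2 ratio was -0.17 instead of 0.47, and without library 1 it was 0.92, so the direction rested on which of these libraries was kept. The kappa sum was 197 ± 0.498 against 192 ± 23.2 CPM (SD, n = 2; exact permutation p = 1). The heavy chain sum was 47.8 ± 2.20 against 40.4 ± 1.44 CPM (SD, n = 2; exact permutation p = 0.3333, the smallest that 2 against 2 libraries allow), and both LINC01432 LNA libraries lay below both controls. In these bulk libraries, fewer cells of a kind and less RNA per cell cannot be told apart.

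In lambda segments LINC01432 LNA library 2 exceeded library 1 by more than it did in nearly all other genes. Genes that were lower in library 2 are not counted in these ranks. The log2 ratio of library 2 over library 1, taken on CPM + 0.5, was 1.12 for IGLC2, and 11 of the 18680 tested genes had a larger ratio. It was 1.19 for IGLC3, with 7 genes larger, and 1.06 for IGLV2-14, with 17 genes larger. The middle 90% of all tested genes lay between -0.51 and 0.40. IGLJ3, IGLV2-11, IGLV2-23, IGLV2-28 and IGLV2-34 lay between 0.93 and 1.08, and IGLC7 lay at 0.55. Of the kappa and heavy chain constant segments, IGKC had 0.27, IGHG2 had 0.11, IGHE had -0.13 and IGHA2 had -0.39. The pseudogene IGHGP had -0.59. The kappa segment IGKJ5, which had few counts, lay above IGLC7 at 0.73, with 102 genes larger. Between the control libraries the same ratio was 0.32 for IGLC2 and 0.37 for IGLV2-14, where the middle 90% of all tested genes lay between -0.38 and 0.35. It was 0.57 for IGLV2-11, 0.53 for IGLV2-28, 0.44 for IGLV2-23, 0.41 for IGLV2-34 and 0.37 for IGLJ3, so that 6 of the 9 lambda segments lay above the middle 90% of the control pair too, again with library 2 the higher. IGLC2, IGLC3 (0.29) and IGLC7 (0.19) lay within it. The lambda to kappa ratio of counts was 13.9 and 17.6 in the controls and 15.7 and 28.1 with LINC01432 LNA.

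**Figure D4:**
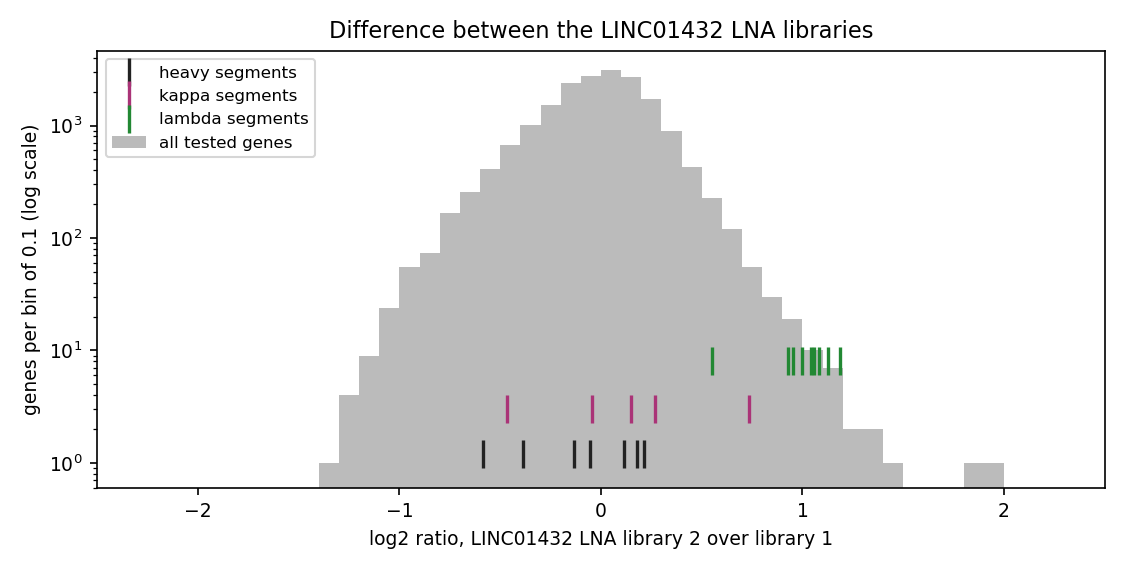
Log2 ratio of LINC01432 LNA library 2 over library 1 (x axis) for all 18680 tested genes (grey bars, genes per bin on a log axis) and for the tested lambda, kappa and heavy chain segments (ticks, whose height only separates the chains). All 9 lambda ticks lie between 0.55 and 1.19, to the right of the middle 90% of genes.

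Between the groups, 2 of the 21 tested members passed the per-gene test: IGHE was higher and IGHG2 lower with LINC01432 LNA (edgeR quasi-likelihood test, p adjusted over 18680 genes and called under 0.05). Over all tested genes 11.9% passed, 7.5% as higher and 4.37% as lower, so the count of members called was near that background. The median log2 fold change was -0.01 for the tested members and 0.01 for all tested genes. Both LINC01432 LNA libraries lay above both controls for 1 member (IGHE), where 28.2% of all tested genes did, and below both for 3 members (IGHG2, IGHG1 and IGKV1D-8), where 25.9% did. The other 17 overlapped.

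IGHE, the constant segment of IgE (ENSG00000211891, chromosome 14 from 105597691 to 105601728), had 21 and 22 counts in the controls and 56 and 59 with LINC01432 LNA. In CPM these were 0.720 and 0.895 against 2.60 and 2.33, and the groups did not overlap. The log2 fold change was 1.61 ± 0.27 (SE; edgeR adjusted p = 0.00304), a 3.06-fold higher level. IGHE stayed a small part of the heavy C counts, with 1.47% in control library 1 and 6.67% at most, and its control level was above the filter on low counts without help from the other group. Its neighbours on the locus did not move with it: IGHA2 had a log2 fold change of -0.03 (adjusted p = 0.977) and IGHG4 one of -0.07 (adjusted p = 0.925). The exons of IGHE are 63.3% G and C, and correcting each library for GC content gave 1.26, still called. DESeq2 gave it no adjusted p. No stretch of 150 bases of IGHE occurs in another member.

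IGHG2 had 43.8 and 40.1 CPM in the controls and 32.0 and 34.7 CPM with LINC01432 LNA, and the groups did not overlap. The log2 fold change was -0.33 ± 0.09 (SE; edgeR adjusted p = 0.0321), a 1.26-fold lower level. With GC correction it was -0.58, still called. The call was lost without control library 1 (-0.28, adjusted p = 0.450) and without control library 2 (-0.40, adjusted p = 0.134). IGHG1 lay below the controls in both LINC01432 LNA libraries too, with 1.51 and 1.75 against 0.884 and 1.11 CPM, but did not pass, with a log2 fold change of -0.69 (edgeR adjusted p = 0.156). Within the heavy chain, IGHE had 1.64 and 2.23 counts for each 100 of IGHG2 in the controls and 8.14 and 6.73 with LINC01432 LNA.

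With group as the only term and the filter on low counts, no lambda or kappa segment passed by edgeR or by DESeq2, and at an unadjusted edgeR p under 0.05 only the pseudogene IGLV2-28 would have. The log2 fold change was 0.49 ± 0.26 for IGLC2 (SE; edgeR adjusted p = 0.264), 0.50 ± 0.27 for IGLC3 (adjusted p = 0.276) and 0.45 ± 0.25 for IGLV2-14 (adjusted p = 0.291). It was 0.59 for IGLV2-28, 0.48 for IGLV2-23, 0.42 for IGLV2-11, 0.34 for IGLJ3 and -0.10 for IGLC7. These values turned with the library left out, except that of IGLV2-28, which ranged from 0.011 to 0.97. Without LINC01432 LNA library 2, IGLC2 had -0.19 and was called lower (adjusted p = 0.00226), and without library 1 it had 0.93 and was called higher (adjusted p = 2.38e-30). Without control library 2 it had 0.65 and was called higher (adjusted p = 0.0421), as it was without a filter on low counts (0.48, adjusted p = 2.07e-08). In a fit with a library left out, the lone library is assumed to vary like the pair of the other group. Of the kappa segments, IGKC had -0.04 ± 0.09 (SE; adjusted p = 0.847) and IGKJ1 had -0.01 (adjusted p = 0.971). Without LINC01432 LNA library 2, IGKC had -0.20 (adjusted p = 0.00256), IGKJ5 had -1.53 (adjusted p = 0.0339) and IGLC7 had -0.43 (adjusted p = 0.00143), all called lower.

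**Figure D5:**
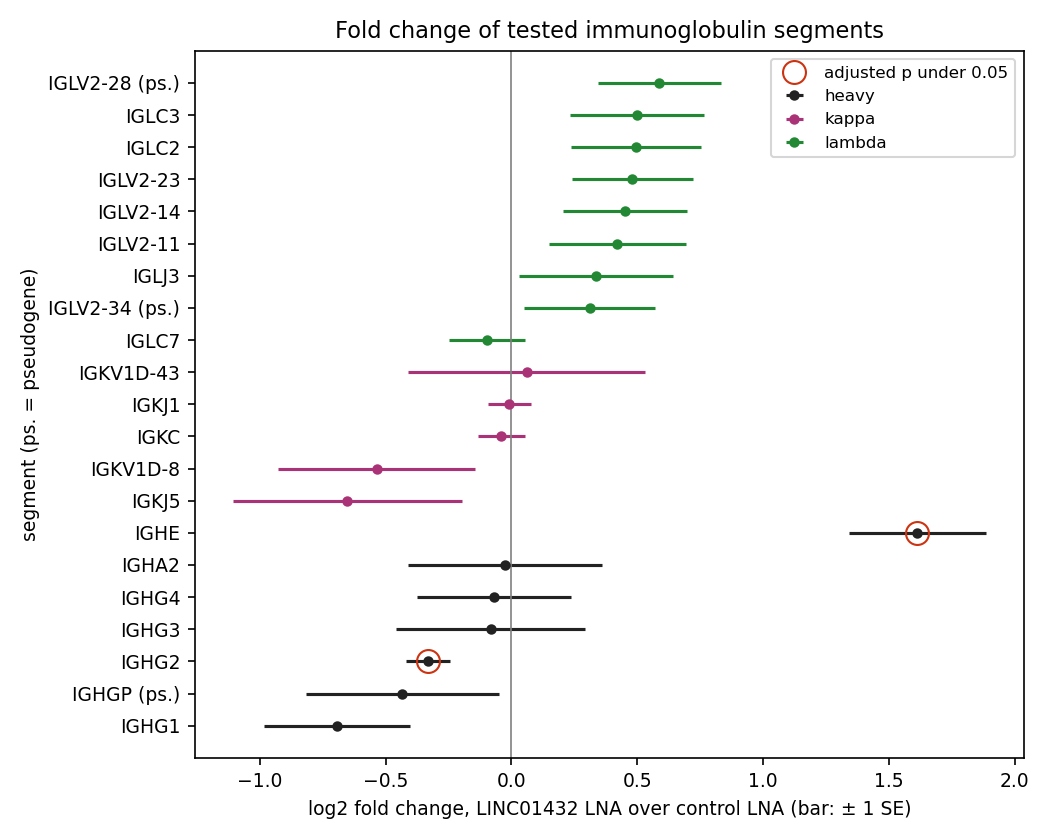
Log2 fold change of LINC01432 LNA over control LNA (x axis, bars ± 1 SE) for the 21 tested segments, grouped by chain; red circles mark an adjusted p under 0.05. IGHE at 1.61 and IGHG2 at -0.33 are the only circled segments, and 8 of the 9 lambda segments lie between 0.31 and 0.59 without passing.

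Genes that make, regulate or fold immunoglobulins were read from 5 lists of 99 genes in all. Of the 89 tested, 6 rose, 10 fell and 73 did not pass (edgeR, adjusted p under 0.05), with a median log2 fold change of -0.10 against 0.01 for all genes. Thus 6.74% were called higher and 11.2% lower, against 7.5% and 4.37% of all tested genes. The count changed with the library left out: 1 gene, TP53BP1, was called without control library 1, and 5 without control library 2 (IRF8, MEF2C, NUDT21, TCF3 and TP53BP1). Without LINC01432 LNA library 1 or 2, 47 and 50 were called. The same fits called 3.82% of all tested genes without control library 1, 5.27% without control library 2, 26.4% without LINC01432 LNA library 1 and 21.6% without library 2. With GC correction 13 were called, of which 11 were among the 16.

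Of the list of chain partners and surrogate light chain genes, 0 of 4 tested genes passed by edgeR or by DESeq2 (2 at an unadjusted edgeR p under 0.05, both lower). Over all tested genes, 11.9% passed by edgeR and 8.73% by DESeq2. JCHAIN, which joins IgA and IgM units, had 16352 and 16228 counts in the controls and 8702 and 13803 with LINC01432 LNA (log2 fold change -0.36, adjusted p = 0.101). CD79A and CD79B, the signalling partners of surface immunoglobulin, had 5 counts or fewer in every library. Of the genes of rearrangement, switching and hypermutation, 1 of 15 tested rose and 2 fell. By edgeR 7.5% of all tested genes rose and 4.37% fell. UNG, a uracil glycosylase of DNA repair, rose from 80.5 ± 1.66 to 108 ± 7.38 CPM (SD, n = 2; edgeR adjusted p = 0.00675). TP53BP1, a DNA break repair factor needed for switching, fell from 41.0 ± 0.299 to 29.1 ± 1.19 CPM (adjusted p = 0.00300), with 28.7% of its exonic bases overlapping other genes. POLH, a polymerase of hypermutation, fell by 0.31 on the log2 scale (adjusted p = 0.0433), but was not called after GC correction, by DESeq2 or with library totals as the only scaling. DNTT, which adds bases at V(D)J joints, was at 0 in all libraries, and RAG1, a subunit of the V(D)J recombinase, had 21 to 27 counts.

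Of 27 tested transcription factors and coactivators of immunoglobulin genes, 3 rose and 4 fell, against 7.5% and 4.37% of all tested genes. TCF3, which encodes the E proteins that bind immunoglobulin enhancers, had 6830 and 5993 counts in the controls and 7666 and 9585 with LINC01432 LNA (log2 fold change 0.62, adjusted p = 0.000592). IRF8 rose by 0.52 (adjusted p = 0.00189) and TFE3 by 0.32 (adjusted p = 0.0232). MEF2C had -0.46 (adjusted p = 0.00508), SPI1, whose protein PU.1 binds light chain enhancers, had -0.40 (adjusted p = 0.0204), XBP1, the plasma cell factor of the secretory programme, had -0.35 (adjusted p = 0.0159), and TCF12 had -0.30 (adjusted p = 0.0400). IRF4, a plasma cell factor, had 0.02 (adjusted p = 0.934) and the coactivator POU2AF1 had 0.02 (adjusted p = 0.931). TFE3 and TCF12 were not called after GC correction, nor TCF12 with library totals as the only scaling.

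Of 18 genes of immunoglobulin mRNA processing, 2 rose and 0 fell, by edgeR and by DESeq2 (5 lower at an unadjusted edgeR p under 0.05). Over all tested genes, edgeR called 7.5% higher and 4.37% lower, and DESeq2 called 8.73% in either direction. NUDT21, a cleavage factor of polyadenylation, had 808 and 765 counts in the controls and 832 and 1141 with LINC01432 LNA (log2 fold change 0.51, adjusted p = 0.00670), and UPF1, the helicase of nonsense-mediated decay, rose by 0.35 (adjusted p = 0.0140). UPF1 was not called after GC correction. ELL2, an elongation factor that favours the secreted form of the heavy chain, had 0.01 (adjusted p = 0.950). Of 25 genes of chain folding, assembly and quality control, 0 rose and 4 fell, by edgeR and by DESeq2. The same shares of all tested genes, 7.5% higher and 4.37% lower by edgeR, stand beside these counts. At an unadjusted p under 0.05, 1 of these genes was higher and 9 were lower, by edgeR and by DESeq2. HSP90B1, an ER chaperone, had -0.38 (adjusted p = 0.0108), the disulphide isomerase PDIA3 -0.38 (adjusted p = 0.0158), the cochaperone DNAJC3 -0.32 (adjusted p = 0.0224) and the ER chaperone HYOU1 -0.31 (adjusted p = 0.0416). DNAJC3 was not called after GC correction, and 18.9% of the exonic bases of PDIA3 overlap other genes. HSPA5 (BiP), which holds unpaired heavy chains in the ER, had -0.10 (adjusted p = 0.586) and MZB1, another ER protein of plasma cells, -0.17 (adjusted p = 0.487). The lambda segments and the folding genes were not set against each other by a test.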

How the data were processed

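The authors deposited 1 table of whole-number counts per gene, not normalized, for the 4 libraries. The tools listed are bcl2fastq, Salmon 1.10.0, STAR 2.7.11b and featureCounts 2.0.8, with GRCh38 as the build, per the submitters' processing notes. The annotation release, strand setting and treatment of reads that fit several genes are not stated in these sources. Per the labels' texts the RNA was poly(A) selected in one place and freed of ribosomal RNA in another. Rows of 92 spike-in RNAs and 5 transgenes were left out. Ensembl IDs were matched to symbols for 61481 of the 78932 gene rows, and positions, exons and sequences from GENCODE 29, which held all 411 members.

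Tests used edgeR 4.0.16 in R 4.3.3: TMM scaling, filterByExpr (minimum count 10, minimum total 15), group as the only term, the quasi-likelihood F test and Benjamini-Hochberg adjustment over 18680 genes, called at an adjusted p under 0.05; the common biological coefficient of variation was 7.13%. CPM were scaled by TMM, and ± is the SD over 2 libraries unless SE is named. Sums were compared by an exact permutation test over libraries, and shares have 95% Wilson intervals. The edgeR step was tested on simulated data. Capitals in printed sequences come from a comparison without gaps. Percent identity is the share of all reference bases matched in a local alignment (Biopython 1.88). Alternatives were other scalings, no filter, DESeq2 1.42.0, each library left out, the replicate number as a block, and a GC correction (lowess span 0.3).

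Named were, in each chain and segment class, the 3 members with the highest mean count of at least 10, every called member and those next to the filter, up to 5 genes of each role with the smallest p, and the highest marker of each list; others (IGLC1, IGLL5, IGHM, IGHD, IGLJ2, IGLV2-8, IGLV2-18, IGHG4, IGHA2, CD79A, CD79B, DNTT, RAG1, POU2AF1, ELL2, HSPA5, MZB1, TFE3 and TCF12 among them) were chosen after their values were seen. Some listed genes are not reported here. The members and lists were chosen with earlier results of these data known.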

Additional observations from a re-analysis of the deposited data

How the results depend on the processing

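With all 4 libraries, 145 values of 19 named segments had an adjusted p under 8 alternatives; none changed direction, 125 kept their side of the threshold and 20 passed it newly. For 7 segments, IGHE among them, DESeq2 gave no adjusted p, and these have no verdict. The count of called members was 8 of 78 tested without a filter on low counts, against 2 of 21. Of 21 tested, it was 8 with the replicate block, 10 with GC correction and the replicate block, and 1 by DESeq2. The added calls were 6 lambda segments called higher, among them IGLC2 (adjusted p = 0.00479 with the block), and with GC correction and the block also IGLC7 and IGHG1, called lower. The count of called immunoglobulin making genes was 26 with the replicate block and 31 with GC correction and the replicate block, against 16. Calls over all tested genes changed as well: 20.7% with the block and 19.8% with GC correction and the block. Without a filter 5.37% were called and by DESeq2 8.73%, against 11.9% without these changes. Same-numbered libraries of the groups deviated together with a correlation of 0.22 over tested genes with a mean log2 CPM of at least 1. But with 2 pairs the samples share only a number. Of all tested genes 2218 were called, 63.2% of them higher; with GC correction 1855 were, 47.9% higher, and with the replicate block 3862.

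Leaving out each library in turn gave 1 to 10 called members and 1 to 50 called immunoglobulin making genes, in fits that called 3.82% to 26.4% of all tested genes. The log2 fold change then ranged from -0.19 to 0.93 for IGLC2, -0.23 to 0.96 for IGLC3, -0.43 to 0.14 for IGLC7, -0.41 to 0.77 for IGLJ3, -0.19 to 0.87 for IGLV2-14, -0.12 to 0.88 for IGLV2-23, -0.26 to 0.85 for IGLV2-11 and -0.30 to 0.69 for IGLV2-34. It ranged from -0.20 to 0.071 for IGKC, -0.10 to 0.048 for IGKJ1, -0.36 to 0.52 for IGKV1D-43 and -0.28 to 0.14 for IGHG3. The lowest of these lambda values all came without LINC01432 LNA library 2, and the cause was not tested. IGHE stayed between 1.44 and 1.76 and was called each time. IGHG2 stayed between -0.41 and -0.28. With no library left out, the summed levels and the share of counts moved by less than 1 SD between libraries under each alternative. Leaving out 1 of the 2 libraries of a group can hardly move a mean by more than that SD, so those shifts were not judged by it. Without LINC01432 LNA library 2 the log2 ratio of the lambda sum went from 0.47 to -0.17. The difference in share of all gene counts, LINC01432 LNA minus control LNA, went from 0.112 to -0.030 percentage points. With 2 libraries a group, and counts of 60 or fewer for IGHE, small differences cannot be shown at this depth.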
